A study of Mus musculus with 3 samples.

Results

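The first steps of T-cell receptor signaling are carried by 9 genes that were followed here across 3 single-cell RNA libraries of mouse CD4+ T cells. These were *Cd3e*, *Cd3d*, *Cd3g* and *Cd247*, which encode the signal-transmitting chains of the receptor, the coreceptor gene *Cd4*, the kinase genes *Lck* and *Zap70*, and the adaptor genes *Lat* and *Lcp2*. The 9 genes were taken by name from the 31053 genes of the deposited tables, with no threshold on their values. In the 2 libraries of stimulated cells, 8 of the 9 genes lay within 1.5-fold of each other between IFT20-KO and WT cells, and *Cd4* alone was further apart. Of all 13504 genes compared, 11259 lay within 1.5-fold as well. Among the 897 genes that reached the level of the least abundant of the 9 in either stimulated library, 0.334% were higher and 0.557% lower past it. *Cd4* reached that level in IFT20-KO cells only. That difference of *Cd4* varied with the number of molecules read per cell, along which the mitochondrial share of stimulated cells also differed. It fell within 1.5-fold under 8 of 13 alternative ways of scaling the counts or choosing the cells, and its direction turned under 2. *Cd247* and *Lat* were lower in IFT20-KO cells (log2 ratios -0.29 and -0.21), and this direction held under all 13. Of all genes compared, 93.1% had a higher ratio than *Cd247* and 90.7% a higher one than *Lat*.

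The receptor itself binds peptide on MHC molecules and has no enzymatic activity. Its CD3 and ζ chains carry the tyrosine motifs that LCK, brought by the coreceptor CD4, phosphorylates, after which ZAP-70 docks there and phosphorylates the membrane scaffold LAT. LAT and SLP-76, the product of *Lcp2*, then gather the enzymes that open the calcium, Ras and NF-κB branches. IFT20 belongs to the intraflagellar transport proteins and takes part in vesicular traffic of the receptor to the immunological synapse, and the comparison with IFT20-KO cells asks whether the transcripts of the receptor complex and its first partners differ when *Ift20* is deleted.

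Cells came from spleens of C57BL/6 mice, were enriched for naïve CD4+ T cells and were sorted as live cells (negative for the dye 7-AAD) with CD3 and CD4 on their surface, so surface products of some of the genes described here were also the gate. All 3 groups carried the loxP-flanked allele (*Ift20* f/f), and the IFT20-KO group also carried CD4 cre, a Cre recombinase driven by *Cd4* regulatory sequence that acts in cells of the T lineage that express, or once expressed, *Cd4*. The groups were unstimulated WT cells kept in DPBS (0 h), WT cells stimulated for 24 h with antibodies against CD3 and CD28 (1 μg/mL each), and IFT20-KO cells stimulated in the same way. The mice were males between 5 and 10 weeks old. No Cre-bearing group without the floxed allele and no unstimulated IFT20-KO group was analysed here, so loss of *Ift20* and presence of Cre cannot be told apart. No WT cells kept for 24 h without antibodies were analysed here, so stimulation and 24 h of culture cannot be told apart either. Differences with stimulation given below are those between the 0 h and the 24 h WT libraries. Each group was 1 library, whether animals were pooled was not given in the sources used here, and no test between groups was possible.

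The unit throughout is the UMI, a molecular barcode that stands for 1 captured RNA molecule, summed over the cells of a library and divided by that library's total to give counts per 1000000 UMIs (CPM). After removal of barcodes with 200 or fewer genes or with at least 15% mitochondrial UMIs, 8031 cells of the unstimulated WT library, 9903 of the stimulated WT library and 13920 of the IFT20-KO library remained, with 37133949, 116979076 and 106435143 UMIs. Depth was unequal, with medians of 4627, 12167 and 5014.5 UMIs per cell. *Ift20* itself was at 64.4, 76.0 and 6.60 CPM in that order. The libraries shared between 125 and 207 of their cell barcodes in pairs. All 6 markers of the labelled cell type (*Cd3e*, *Cd3d*, *Trac*, *Trbc2*, *Cd4* and *Cd28*) were detected in every library, and the 4 markers of B cells summed to 0.846 to 3.31 CPM. Of the CD8 T cell markers, *Cd8b1* stood at 28.6, 9.04 and 11.2 CPM in the libraries as ordered above while *Cd8a* was at 0.16, 0.12 and 0.29 CPM, and the markers of myeloid, NK and erythroid cells summed to at most 0.242 CPM per type. The gamma-delta T cell markers *Trdc* and *Tcrg-C1* summed to 2.18, 0.487 and 1.08 CPM in the same order. Their UMIs were found in 0.747%, 0.353% and 0.553% of cells. No barcode carried UMIs of at least 2 B cell markers, so no cell type that lacks these genes was at hand to measure free RNA. The methods name a 3′ kit and the labels a 5′ kit, so which end of a transcript was counted is not settled. Levels were therefore compared mainly between libraries. Shares of UMIs among several genes, given below, are likewise meant for comparison between libraries.

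*Cd3g*, *Cd3d* and *Cd3e* are neighbours on mouse chromosome 9 and together span 40056 bases of the GRCm38 genome. In the GENCODE M21 annotation *Cd3g* (ENSMUSG00000002033) lies at chr9:44969572-44980431 on the minus strand, *Cd3d* (ENSMUSG00000032094) at chr9:44981786-44987339 on the plus strand and *Cd3e* (ENSMUSG00000032093) at chr9:44998740-45009627 on the minus strand. The starts of *Cd3g* and *Cd3d* face away from each other and are 1355 bases apart. *Cd247* (ENSMUSG00000005763) lies elsewhere, at chr1:165788681-165877277 on the plus strand, and overlaps 6 other annotated genes, among them *Pou2f1* on the opposite strand and *Gm16565* on its own strand. The kinase genes lie at chr4:129548344-129573641 on the minus strand (*Lck*, ENSMUSG00000000409) and at chr1:36761798-36782818 on the plus strand (*Zap70*, ENSMUSG00000026117). The adaptor genes lie at chr7:126363824-126369570 on the minus strand (*Lat*, ENSMUSG00000030742) and at chr11:34046920-34092295 on the plus strand (*Lcp2*, ENSMUSG00000002699), and *Cd4* (ENSMUSG00000023274) lies at chr6:124864692-124888221 on the minus strand. *Cd3d*, *Cd3g* and *Cd4* overlap no other annotated gene.

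Promoter windows, which run from 250 bases before to 50 bases after an annotated start, were taken from RefSeq (GRCm38.p6) and were present for 8 of the 9 genes, with *Cd4* the exception. The 7 shown are the CD3 chain genes, whose members moved unequally with stimulation, and the 3 intracellular genes that moved past 1.5-fold, *Lck* downward and *Zap70* and *Lcp2* upward. Each runs 5′ to 3′ on the strand of its gene, for the first start listed, and capitals mark CAGGAA or its reverse complement TTCCTG, the core of many ETS-family sites. This string was chosen after the sequences were seen.
Cd3e, chr9:45009562-45009861, minus strand: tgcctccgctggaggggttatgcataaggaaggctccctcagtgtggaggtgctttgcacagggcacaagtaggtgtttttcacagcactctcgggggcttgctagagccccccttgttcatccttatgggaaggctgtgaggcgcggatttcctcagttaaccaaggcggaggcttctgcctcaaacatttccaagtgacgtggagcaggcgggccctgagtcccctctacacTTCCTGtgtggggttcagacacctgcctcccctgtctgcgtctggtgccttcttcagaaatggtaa
Cd3d, chr9:44981536-44981835, plus strand: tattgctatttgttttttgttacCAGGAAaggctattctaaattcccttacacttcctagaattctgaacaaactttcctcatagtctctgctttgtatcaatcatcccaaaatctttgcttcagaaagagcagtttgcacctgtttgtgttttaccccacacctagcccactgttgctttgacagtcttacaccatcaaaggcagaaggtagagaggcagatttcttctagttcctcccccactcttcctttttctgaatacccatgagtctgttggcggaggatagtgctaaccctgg
Cd3g, chr9:44980382-44980681, minus strand: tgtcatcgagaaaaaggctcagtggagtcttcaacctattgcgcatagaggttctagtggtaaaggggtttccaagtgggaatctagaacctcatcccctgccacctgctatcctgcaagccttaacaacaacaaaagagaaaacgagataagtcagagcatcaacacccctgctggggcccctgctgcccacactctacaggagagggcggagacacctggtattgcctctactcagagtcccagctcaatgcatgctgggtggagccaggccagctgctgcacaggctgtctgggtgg
Cd247, chr1:165788431-165788730, plus strand: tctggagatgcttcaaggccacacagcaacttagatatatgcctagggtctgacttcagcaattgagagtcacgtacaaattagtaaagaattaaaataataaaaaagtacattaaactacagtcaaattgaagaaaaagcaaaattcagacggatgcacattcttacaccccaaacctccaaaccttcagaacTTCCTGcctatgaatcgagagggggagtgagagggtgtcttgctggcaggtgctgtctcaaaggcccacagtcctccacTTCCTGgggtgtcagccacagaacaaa
Lck, chr4:129573592-129573891, minus strand: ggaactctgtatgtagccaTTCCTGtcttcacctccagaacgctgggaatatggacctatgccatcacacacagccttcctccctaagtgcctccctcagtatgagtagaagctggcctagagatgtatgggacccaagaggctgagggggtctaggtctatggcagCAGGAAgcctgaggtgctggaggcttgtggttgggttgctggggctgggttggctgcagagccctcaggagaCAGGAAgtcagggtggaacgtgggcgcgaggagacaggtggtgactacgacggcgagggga
Zap70, chr1:36761548-36761847, plus strand: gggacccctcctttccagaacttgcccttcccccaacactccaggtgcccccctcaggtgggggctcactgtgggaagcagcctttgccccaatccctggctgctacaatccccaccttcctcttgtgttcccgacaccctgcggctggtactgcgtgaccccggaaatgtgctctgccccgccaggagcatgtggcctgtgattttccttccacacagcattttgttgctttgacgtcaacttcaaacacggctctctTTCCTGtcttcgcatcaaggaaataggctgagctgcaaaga
Lcp2, chr11:34046678-34046977, plus strand: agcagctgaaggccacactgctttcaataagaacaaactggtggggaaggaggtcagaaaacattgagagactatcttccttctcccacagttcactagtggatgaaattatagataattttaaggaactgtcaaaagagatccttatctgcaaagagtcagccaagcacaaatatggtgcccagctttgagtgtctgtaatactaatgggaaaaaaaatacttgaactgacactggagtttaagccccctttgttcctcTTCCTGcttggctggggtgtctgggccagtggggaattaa

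The CAGGAA string was found on either strand in the first listed window of 7 of the 8 genes, all but *Cd3g*, and in 30.6% of all 32817 RefSeq promoter windows of the same length. *Lck* held 3 matches, *Cd247* 2, and *Cd3e*, *Cd3d*, *Zap70* and *Lcp2* 1 each. The E-box CACCTG (reverse complement CAGGTG), which cannot overlap the first string, was found in the first window of 6 genes, all but *Lat* and *Lcp2*, and in 20.2% of all windows. A TATAAA string, or TTTATA on the other strand, was in 0 of the 11 windows of these genes and in 13.6% of all windows. Other strings searched were TGTGGT (a RUNX core), in the first window of 2 of the 8 genes and in 16.8% of all windows, GGGCGG (a GC box), in 1 and 35.6%, and TGACGT (from the cyclic AMP response element), in 2 and 7.51%. Genes that were higher and genes that were lower after stimulation both held the CAGGAA string, and these matches describe letters only.

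After 24 h of stimulation 4 of the 9 genes were lower past 1.5-fold in WT cells (*Cd247*, *Cd4*, *Lck* and *Cd3g*), *Lcp2* and *Zap70* were higher past 1.5-fold, and *Cd3e*, *Cd3d* and *Lat* were within it. Against these 2 higher and 4 lower genes, 28.6% of the 13297 genes that had 10 or more UMIs in the pair of libraries were higher and 34.3% were lower past 1.5-fold, so movement of this size was common in the comparison. Among the 795 genes at least as abundant as the least abundant of the 9, the shares were 41.6% higher and 24.2% lower. The median log2 ratio of the 9 genes was -0.17, and that of all genes was -0.089. In UMIs per cell without scaling, all 9 genes were higher in stimulated WT cells, 6 of them past 1.5-fold, on a scale whose median over all genes was 1.26. On that scale *Cd247* was at 1.82 UMIs per unstimulated and 2.01 per stimulated WT cell, *Lck* at 3.78 and 5.66 and *Cd3g* at 4.46 and 7.01, so the lower levels are lower shares of the RNA read and not fewer molecules read per cell. Intervals given below are 95% intervals for counting error alone and say nothing of differences between mice or libraries.

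**Figure D1:**
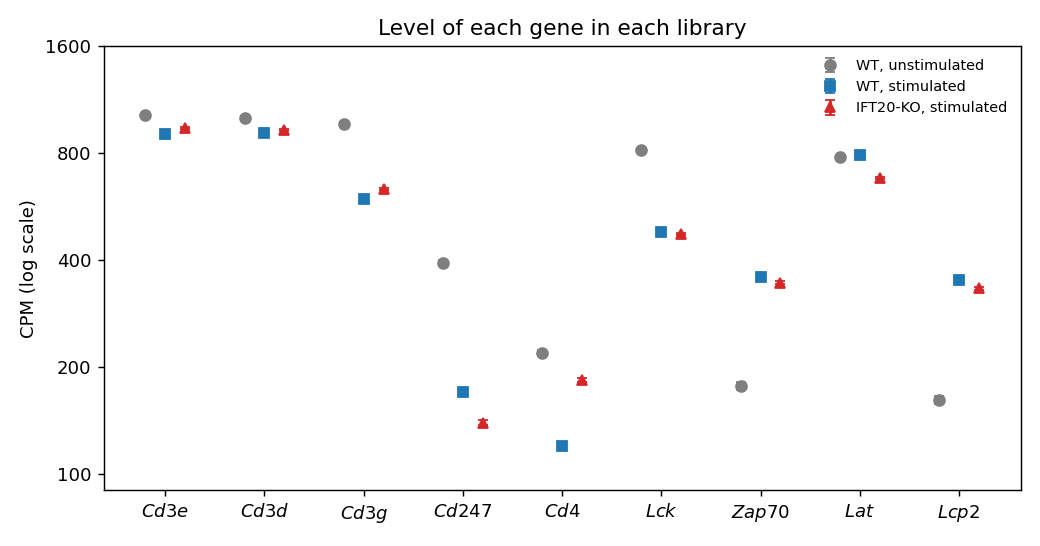
Level of each of the 9 genes (CPM, log scale) in unstimulated WT (grey circles), stimulated WT (blue squares) and stimulated IFT20-KO cells (red triangles), 1 library each, with exact Poisson 95% intervals that are mostly smaller than the symbols. The blue and red symbols lie close together for every gene except *Cd4* (120.1 and 184 CPM), while grey lies apart from both for *Cd3g*, *Cd247*, *Lck*, *Zap70* and *Lcp2*.

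Among the receptor chains, the ε chain gene *Cd3e* stood at 1022 CPM in unstimulated WT, 905 CPM in stimulated WT and 938 CPM in stimulated IFT20-KO cells. Its partner *Cd3d*, the δ chain gene, stood at 1005, 912 and 929 CPM. The highest of the 3 libraries exceeded the lowest by 1.13-fold for *Cd3e* and by less for *Cd3d*, the narrowest spreads among the 9 genes. *Cd3g*, which encodes the γ chain that forms the other CD3 dimer with ε, was at 965 CPM in the unstimulated library and at 593 and 633 CPM in the stimulated libraries. Its log2 ratio for stimulation was -0.70 (interval -0.72 to -0.68), while for its neighbour *Cd3d* the ratio was -0.14 (interval -0.16 to -0.12). The ratio of *Cd3g* was within 1.5-fold with median-ratio size factors (-0.53), with means of per-cell fractions (-0.56), and in cells with 1400 to 3000 or with 6000 to 12000 UMIs (-0.44 in both). *Cd247*, the gene of the ζ chain, which carries the most signaling motifs per chain, was at 394, 170.2 and 139.6 CPM. Its log2 ratio of -1.21 (interval -1.24 to -1.18) was the lowest of the 9.

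The makeup of the CD3 and ζ transcripts therefore differed between resting and stimulated cells. *Cd3g* made up 28.5% of the UMIs of the 4 chain genes in unstimulated WT cells, 23.0% in stimulated WT cells and 24.0% in stimulated IFT20-KO cells. For *Cd247* these shares were 11.6%, 6.60% and 5.29%. *Cd3e* and *Cd3d* made up the remainder in nearly equal parts, 30.2% and 29.7% before stimulation and between 35.1% and 35.5% in both stimulated libraries. The 4 genes summed to 3386 CPM before stimulation and to 2581 and 2639 CPM in the stimulated WT and IFT20-KO libraries.

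*Cd4* was at 219 CPM in unstimulated WT, 120.1 CPM in stimulated WT and 184 CPM in stimulated IFT20-KO cells. The log2 ratio for stimulation was -0.87 (interval -0.91 to -0.83). This value did not hold at every depth, as described below.

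The 2 kinases moved in opposite directions with stimulation. *Lck*, the kinase that starts the cascade, was at 817 CPM in unstimulated WT and at 479 and 473 CPM in stimulated WT and IFT20-KO cells, with a log2 ratio of -0.77 (interval -0.79 to -0.75). *Zap70*, the kinase recruited to the phosphorylated receptor, was at 177 CPM before and 359 and 345 CPM after stimulation, a 2.02-fold higher level in WT cells. *Zap70* thus made up 17.8% of the UMIs of both kinases in resting cells, and 42.8% and 42.2% in the stimulated WT and IFT20-KO libraries.

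The adaptors moved unequally. *Lat* was at 778, 789.5 and 681 CPM in the libraries in the same order, unstimulated WT first, and its log2 ratio for stimulation was 0.021 (interval 0.0021 to 0.040). *Lcp2*, whose product SLP-76 binds next to LAT, was at 162, 352 and 333 CPM, with a log2 ratio of 1.12 (interval 1.08 to 1.16), the highest of the 9. The share of *Lcp2* in the UMIs of both adaptors was 17.2% in resting cells and 30.8% and 32.9% in the stimulated WT and IFT20-KO libraries.

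**Figure D2:**
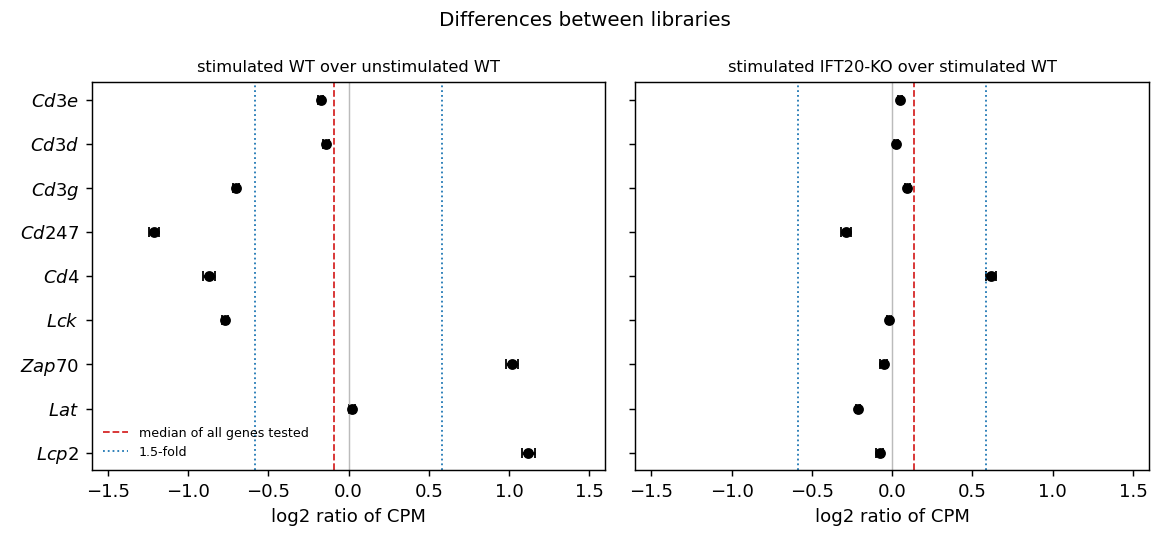
Log2 ratio of CPM for each gene between stimulated and unstimulated WT cells (left) and between stimulated IFT20-KO and stimulated WT cells (right), with 95% intervals for counting error. The dashed red line is the median of all genes tested (-0.089 left, 0.14 right) and dotted blue lines mark 1.5-fold. Points spread from -1.21 to 1.12 on the left, and on the right all but *Cd4* (0.61) lie between -0.29 and 0.094.

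In stimulated IFT20-KO cells 1 of the 9 genes was higher than in stimulated WT cells past 1.5-fold and 0 were lower. Of the 13504 genes that had 10 or more UMIs in this pair of libraries, 13.4% were higher and 3.27% lower past 1.5-fold. Among the 897 genes with at least 170.2 CPM in either stimulated library, the level of the least abundant of the 9, 0.334% were higher and 0.557% lower. *Cd4* was 1 of the 3 higher genes, but it passed this filter only in IFT20-KO cells (184 CPM, against 120.1 CPM in WT). Genes near the WT level of *Cd4* entered only if they were higher in IFT20-KO cells. With median-ratio size factors over the same cells the log2 ratio of *Cd4* was 0.44, and after subtracting the all-gene median it was 0.48, both within 1.5-fold. On the latter scale 8.68% of all genes were higher and 4.5% lower past 1.5-fold. The median log2 ratio of the 9 genes was -0.017, that of all genes was 0.14, and 8 of the 9 genes lay below the median of all genes. Most of the 13504 genes behind that median were less abundant than the 9, and a median over the 897 abundant genes is not given here. The stimulated WT library is the numerator in the first comparison and the denominator in the second, so a value of that library that is off would move both, in opposite directions.

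The CD3 chain genes differed little between IFT20-KO and WT. The log2 ratio was 0.051 (interval 0.039 to 0.064) for *Cd3e*, 0.026 (interval 0.013 to 0.038) for *Cd3d* and 0.094 (interval 0.079 to 0.11) for *Cd3g*. These values were small enough for the scaling to decide their sign, since all genes had a median of 0.14 on the same scale, and the median-ratio size factors put *Cd3e* at -0.12. For the ζ chain gene *Cd247* the ratio was -0.29 (interval -0.32 to -0.26), and it stayed below 0 under all 13 alternative settings. The constant region gene of the receptor α chain, *Trac*, was at 255 CPM in WT and 246 CPM in IFT20-KO cells, and the β constant genes *Trbc1* and *Trbc2*, near-identical copies whose reads are not separated with certainty, summed to 464 and 376 CPM.

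*Lck* (log2 ratio -0.017, interval -0.034 to 0.00050), *Zap70* (-0.054) and *Lcp2* (-0.079) were the other genes with ratios close to 0, and each changed sign under at least 2 alternative settings. *Lat* was lower in IFT20-KO cells, with a log2 ratio of -0.21 (interval -0.23 to -0.20). As for *Cd247*, its ratio was below 0 under all 13 alternatives. In CPM neither gene reached 1.5-fold over all kept cells, and in UMIs per cell both did, at -0.91 for *Cd247* and -0.84 for *Lat*.

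Because the libraries differed in depth, cells were also compared within bins of UMIs per cell. Cells with 1400 to 3000 UMIs made up 6.65% of the unstimulated WT, 17.4% of the stimulated WT and 39.6% of the stimulated IFT20-KO cells. In stimulated cells of this bin the median share of mitochondrial UMIs was 10.6% (WT) and 5.74% (IFT20-KO), against 1.42% and 1.11% in cells with 6000 to 12000 UMIs. In unstimulated cells these medians were 2.64% and 2.25%.

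In stimulated cells *Cd4* followed depth more steeply than any of the other 8 genes. In stimulated WT cells it stood at 605 CPM among cells with 1400 to 3000 UMIs, 319.9 CPM with 3000 to 6000, 94.2 CPM with 6000 to 12000, 103 CPM with 12000 to 24000 and 109 CPM with 24000 or more. Stimulated IFT20-KO cells showed the same shape, with 464, 444, 122, 128 and 126 CPM. Unstimulated WT cells did not, with values between 202 and 259 CPM over the first 4 bins. In counts, a stimulated WT cell of the shallowest bin had on average 1.20 *Cd4* UMIs and a cell with 6000 to 12000 UMIs had 0.921. In IFT20-KO cells these means were 1.06 and 1.16. The log2 ratio of CPM between those bins was 2.68 in stimulated WT cells, where 32 of 2764 genes with at least 50 CPM (1.16%) had a higher one, and 1.93 in stimulated IFT20-KO cells, where 72 of 2870 (2.51%) did. In unstimulated WT cells it was 0.36, with 21.4% of genes higher. In stimulated cells the mitochondrial share was also higher in the shallowest bin than in cells with 6000 to 12000 UMIs. That share is not given here for the other bins, and its part in the result was not tested.

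**Figure D3:**
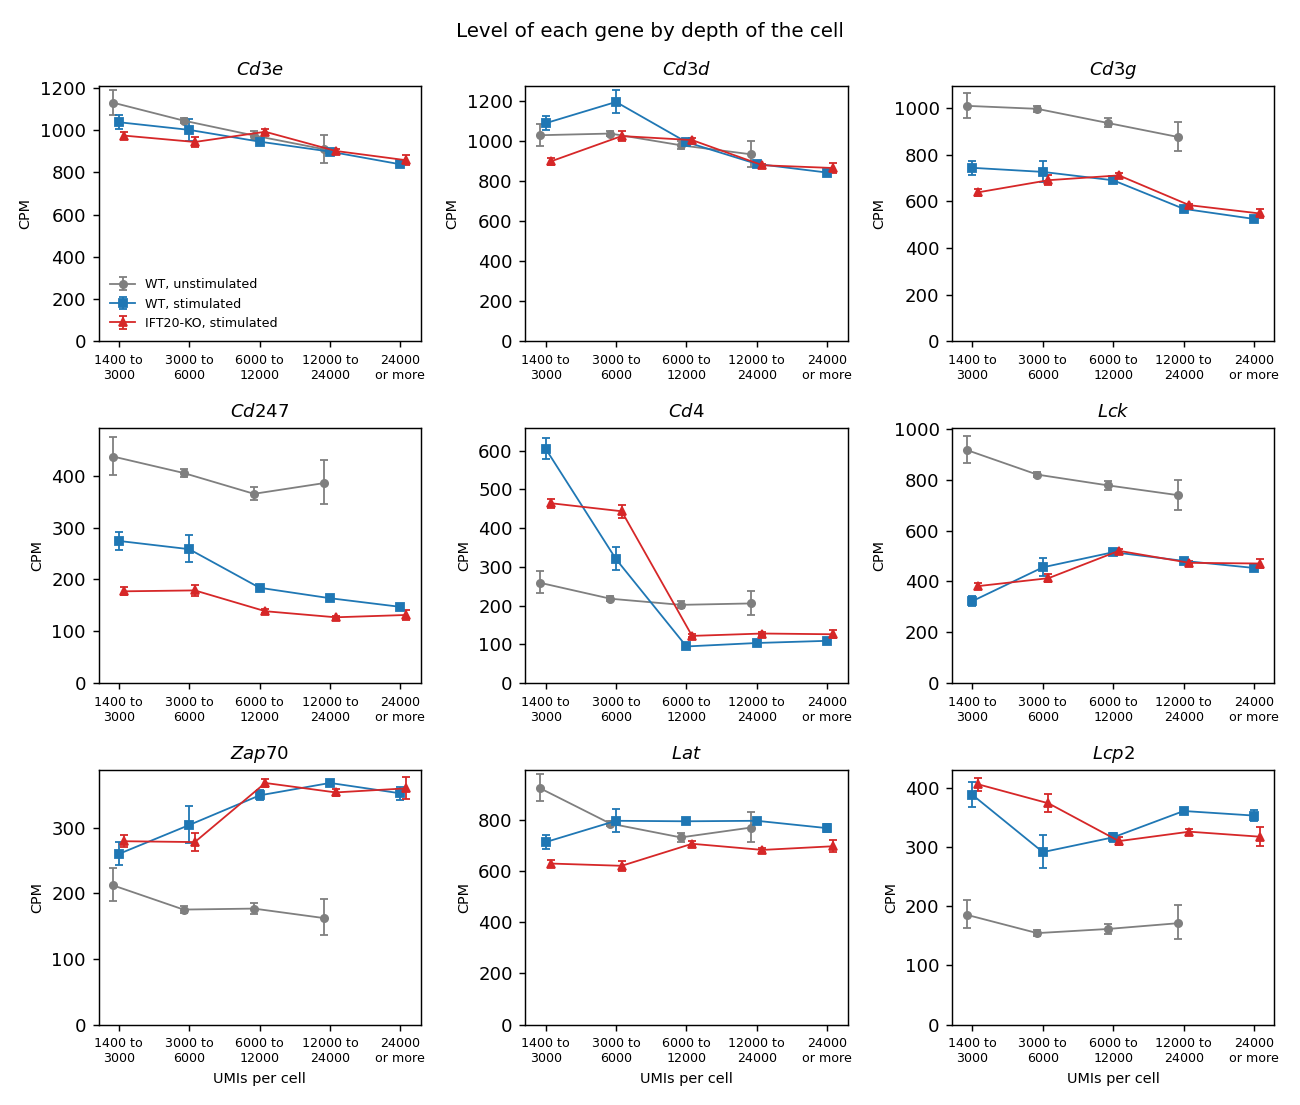
Level of each gene (CPM, linear axis from 0) in bins of UMIs per cell for the 3 libraries, with exact Poisson 95% intervals. Bins with under 20 cells, which is the deepest bin of the unstimulated library, are left out. *Cd4* falls from 605 and 464 CPM in the shallowest stimulated cells to between 94.2 and 128 CPM in cells with 6000 UMIs or more, and *Cd247* of IFT20-KO (red) lies below WT (blue) in every bin.

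For *Cd4*, the ratio between IFT20-KO and WT cells differed between the bins. Within the bins, from shallow to deep, the log2 ratio was -0.38, 0.47, 0.37, 0.31 and 0.21, so IFT20-KO was higher in the 4 deeper bins by less than 1.5-fold and lower in the shallowest. Among cells with at least 6000 UMIs, a selection made after the data had been seen, the ratio was 0.30, and 0 of the 9 genes were past 1.5-fold in either direction. The mean number of *Cd4* UMIs per cell was 1.42 in stimulated WT and 1.40 in stimulated IFT20-KO cells, and in these units 6 of the other 8 genes were lower in IFT20-KO cells past 1.5-fold, on a scale whose median over all genes was -0.49. The decrease of *Cd4* with stimulation was likewise seen only in the deeper bins. There the log2 ratio was -1.10 (6000 to 12000 UMIs) and -0.99 (12000 to 24000 UMIs, with 60 unstimulated cells), whereas it was 1.23 and 0.56 in the shallower bins. The bin of 3000 to 6000 UMIs held 339 stimulated WT cells, 3.42% of that library, against 66.4% of the unstimulated cells. Both the 0.56 and the 0.47 for IFT20-KO against WT rest on those 339 cells.

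The lower levels of *Cd247* and *Lat* in IFT20-KO cells were seen at every depth. For *Cd247* the log2 ratios within bins, from shallow to deep, were -0.63, -0.53, -0.41, -0.37 and -0.16, so that the shallowest bin alone passed 1.5-fold. For *Lat* they were -0.18, -0.36, -0.17, -0.22 and -0.14. *Cd3e*, *Cd3d* and *Cd3g* were lower in IFT20-KO cells in both bins under 6000 UMIs, by at most 0.28 on the log2 scale, and between -0.011 and 0.070 in the 3 deeper bins. *Lck* behaved opposite to *Cd4* in stimulated WT cells, with 323 CPM in the shallowest bin and between 453 and 515 CPM above 3000 UMIs. *Zap70* also had its lowest stimulated level in shallow WT cells, at 260.1 CPM. Its log2 ratio for stimulation was 0.29 there and 0.98 in cells with 6000 to 12000 UMIs, while that of *Lcp2* was 1.07 and 0.97. The median of all genes was 0.46 and -0.095 in these bins, so *Zap70* lay below it in the shallowest.

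The shares of cells with at least 1 UMI followed depth as well as level. Among all kept cells *Cd3e* was detected in 93.8%, 94.6% and 93.5% of unstimulated WT cells, stimulated WT cells and IFT20-KO cells, and *Cd247* in 77.7%, 72.9% and 54.9%. After random thinning of every cell to 1400 UMIs, which left out 801 unstimulated and 421 stimulated WT cells and 0 IFT20-KO cells, *Cd3e* was detected in 75.5%, 71.0% and 71.6% and *Cd247* in 42.0%, 22.5% and 19.5%. The gap of *Cd247* between the stimulated libraries was thus smaller in percentage points after thinning, which lowered detection in both. Its level still differed, at 0.268 UMIs per thinned stimulated WT cell and 0.220 per thinned IFT20-KO cell. *Cd4* was detected in 60.0%, 66.7% and 67.1% of all kept cells and in 25.7%, 20.5% and 29.8% of thinned cells. *Zap70* and *Lcp2* were detected in 22.3% and 19.6% of thinned unstimulated cells, in 36.4% and 36.7% of thinned stimulated WT cells, and in 35.8% and 37.6% of thinned IFT20-KO cells.

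**Figure D4:**
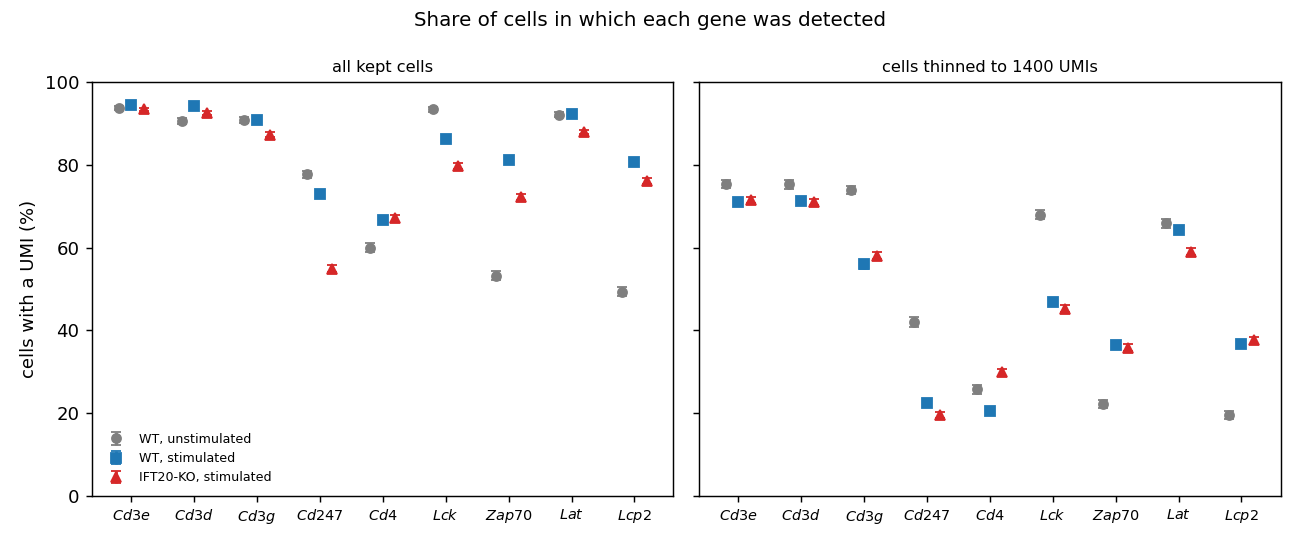
Share of cells with at least 1 UMI of each gene among all kept cells (left) and after thinning each cell to 1400 UMIs (right), with exact binomial 95% intervals. Thinning lowers detection in every library. In percentage points it narrows the gap between stimulated WT (blue) and IFT20-KO (red) for *Cd247* from 72.9% and 54.9% to 22.5% and 19.5%. It parts them for *Cd4* at 20.5% and 29.8%.

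Most cells carried several of these transcripts at once. Of the 9 genes, a median of 7 was detected per unstimulated WT cell and of 8 per stimulated cell of either genotype. At 1400 UMIs per cell the order turned, with medians of 5 in unstimulated WT and 4 in both stimulated libraries. All 4 chain genes were found together in 72.0%, 68.2% and 48.8% of unstimulated WT cells, stimulated WT cells and IFT20-KO cells, and at 1400 UMIs per cell in 18.8%, 6.99% and 6.38%. The number of kept cells with none of the 9 genes was 7, 11 and 0. For the IFT20-KO library, 0 of 13920 kept cells allows a share of up to 0.0216%, taking 3 cells as the limit for a count of 0. At 1400 UMIs per cell the number with none was 2, 36 and 38 in the same order of libraries.

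Other genes of the pathway were described from a list of 76 genes in 7 roles. After stimulation 10 of them were higher and 36 lower past 1.5-fold, which is 13.2% and 47.4% of the list, against 28.6% and 34.3% of all genes. The median log2 ratio was -0.56 against -0.089 for all genes. In UMIs per cell the counts turned to 43 higher and 12 lower, on a scale whose median over all genes was 1.26. Of the 18 adaptors, 2 were higher and 12 lower. The lower ones included *Sit1* (131 CPM before and 12.1 CPM after stimulation), *Themis* (73.9 and 8.07 CPM), *Trat1* (95.6 and 12.8 CPM) and *Grap2*, whose product GADS joins LAT to SLP-76 (161 and 25.4 CPM). *Sh2d2a*, which encodes the LCK-binding adaptor TSAd, went from 107 to 289 CPM. *Grap2* thus had a log2 ratio of -2.66 and *Lcp2*, whose product it binds, one of 1.12.

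Among the 21 effectors 2 were higher and 14 lower, the latter including *Rasgrp1*, an activator of Ras (154 to 34.1 CPM), *Prkcq*, the kinase PKC-θ (248 to 92.9 CPM), and *Plcg1*, the phospholipase that LAT recruits (61.8 to 25.7 CPM). *Orai1*, the pore of the calcium channel that this phospholipase sets in motion, went from 95.7 to 201 CPM, whereas *Stim1*, its sensor in the endoplasmic reticulum, had a log2 ratio of -1.07. Of the 5 other kinases, the Tec-family genes *Txk* (159 to 18.0 CPM) and *Tec* (27.7 CPM before, log2 ratio -4.20) were lower and *Fyn* was at 85.7 and 102 CPM. Of the 17 genes listed as inhibitors, 4 were higher and 6 lower. This role of the list includes the phosphatase genes *Ptprc*, *Ptpn11* and *Ptprj*, whose products do not act as inhibitors alone, and the latter 2 were among the higher genes. *Ubash3b* (29.4 to 82.3 CPM) and *Sla* (64.3 to 154 CPM), both negative regulators of the receptor complex, were higher, and *Pag1* (86.7 to 18.2 CPM), which holds the LCK inhibitor CSK at the membrane, and *Dgka* (622 to 265 CPM) were lower. The receptor partners *Cd5* (329.5 to 774 CPM) and *Cd6* (185 to 351 CPM) were higher, and *Cd2* (392 to 269 CPM) stayed within 1.5-fold. Of the 9 genes of receptor sorting, which include *Tsg101* and other ESCRT subunits, 0 were higher and 2 lower, with *Vps37b* at 105 and 12.5 CPM.

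**Figure D5:**
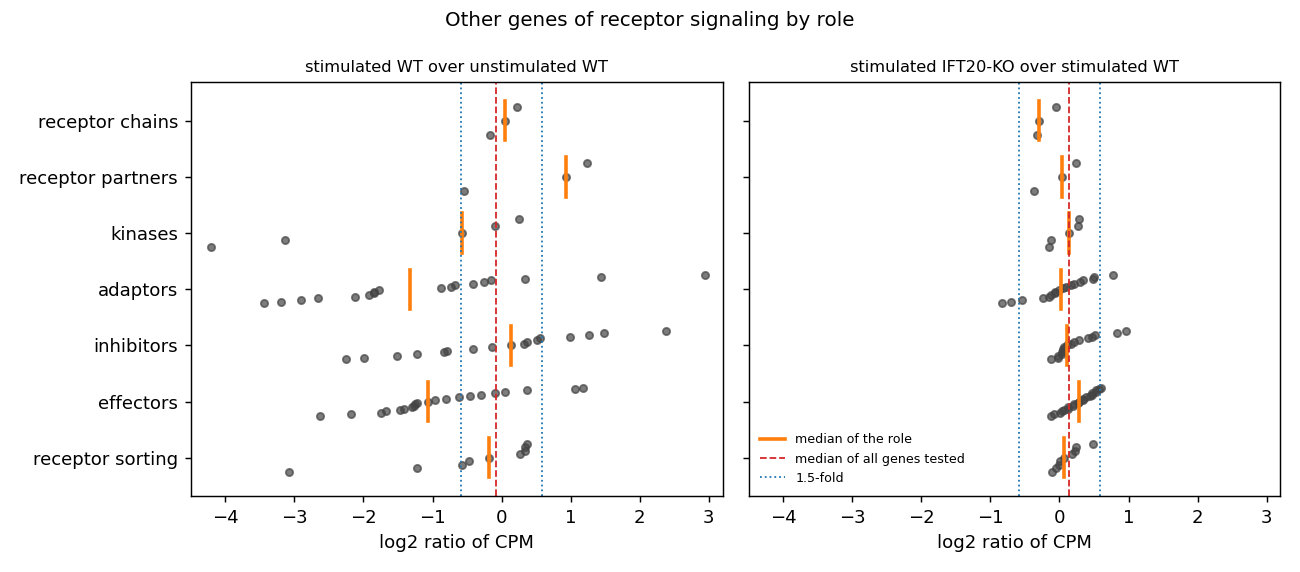
Log2 ratio of CPM of the 76 other genes of receptor signaling, grouped by role, for stimulation in WT cells (left) and for IFT20-KO against WT in stimulated cells (right). Each point is 1 gene, orange bars are medians of a role, the dashed red line is the median of all genes tested and dotted blue lines mark 1.5-fold. Adaptors and effectors have medians of -1.32 and -1.07 on the left, and on the right every role has a median between -0.29 and 0.29.

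Between IFT20-KO and WT cells 4 of the 76 genes were higher and 2 lower past 1.5-fold, which is 5.26% and 2.63% of the list, against 13.4% and 3.27% of all genes. The median log2 ratio was 0.13 against 0.14 for all genes. The higher genes were the adaptor *Themis* (8.07 CPM in WT and 13.8 CPM in IFT20-KO) and the calcium channel gene *Itpr3* (9.13 and 13.8 CPM). From the role listed as inhibitors, *Pag1* (18.2 and 32.6 CPM) and *Ptprj* (0.701 and 1.36 CPM) were also higher. The lower ones were the adaptors *Sh2d1a* (29.3 and 16.5 CPM) and *Trat1* (12.8 and 7.84 CPM). All 6 were below 50 CPM in both stimulated libraries. The number higher moved with the cells compared. It was 11 among cells with over 1000 genes and under 10% mitochondrial UMIs. It was 15 among cells with at least 33.3% of their library's median UMIs and 0 among cells with at least 6000 UMIs. The median log2 ratio of all genes under these settings was 0.16, 0.18 and 0.037. The share of all genes past 1.5-fold under them is not given here. The 33.3% filter was uneven, as it left out 23.2% of stimulated WT and 3.34% of IFT20-KO cells. The receptor chains *Trac*, *Trbc1* and *Trbc2* had log2 ratios below 0, of -0.053, -0.32 and -0.29, but *Trac* and *Trbc1* were above 0 in cells with 1400 to 3000 UMIs (0.21 and 0.24) and *Trac* also in cells with 6000 to 12000 UMIs (0.027). Of the receptor partners, *Cd2* had a log2 ratio of -0.37 (269 CPM in WT and 208 CPM in IFT20-KO), below 0 under all 13 alternatives. *Cd5* and *Cd6* were at 0.24 and 0.033 over all kept cells. In the sorting group the ratios ranged from -0.11 for *Vps28* to 0.49 for *Stam*, with 0 of 9 past 1.5-fold.

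Measured by both log2 ratios together, the genes nearest to *Cd3e* among 3426 genes with at least 50 CPM in a library were *Ywhag*, *Aph1a*, *Atp6v1b2*, *Rpl8* and *Rps14*. With only 3 libraries behind the measure, 71 genes (2.07%) lay within 0.1 of *Cd3e*.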

How the data were processed

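Single-cell RNA libraries of sorted CD4+ T cells were analysed, 1 for each of the 3 groups. The authors deposited whole-number counts of UMIs per gene and called barcode without normalization, made with Cell Ranger (3.1.0 in the file headers) on mm10 according to the submitters' processing notes. The calling minimum differed, the shallowest barcode having 500, 709 and 1493 UMIs.

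From these counts, barcodes were kept if they had over 200 genes and a mitochondrial share below 15%, and UMIs were summed per library and divided by the library total (CPM). Intervals at 95% were exact Poisson for CPM, exact binomial for ratios and Clopper-Pearson for shares, and cover counting error only. No p-value was computed, since each group is 1 library and cells are not replicates. A gene was called higher or lower past 1.5-fold, and ratios needed 10 or more UMIs in the pair of libraries. Doublets were not removed. Python 3.11.15 with numpy 2.4.6, scipy 1.17.1, pandas 2.3.3 and matplotlib 3.10.9 was used, and the ratio calculation was tested on simulated data.

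The 9 genes, the list of other pathway genes and the markers were chosen with earlier results of these data known. Of 77 listed pathway genes 1 was left out, because its symbol belongs to 2 identifiers at 1 locus. Named from the list were genes past 1.5-fold with at least 50 CPM in either library and the highest and lowest ratio of each role, and for likeness the 5 genes nearest to *Cd3e*. The text gives a part of these genes, and genes past 1.5-fold below that level are named where they were few. Alternatives were median-ratio size factors, UMIs per cell, means of per-cell fractions, CPM without mitochondrial and ribosomal protein genes, all barcodes, a stricter filter (over 1000 genes and under 10% mitochondrial UMIs), cells with at least 33.3% of their library's median UMIs, cells thinned to 1400 UMIs, cells with 6000 to 12000 UMIs, cells without markers of other types, stimulated cells with an *Il2ra* UMI and no minimum of UMIs per gene. Cells with at least 6000 UMIs, and those with 1400 to 3000 UMIs, were added after the data had been seen.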

Additional observations from a re-analysis of the deposited data

How the results depend on the processing

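No paired analysis was possible because each group has 1 library, and no library was left out for the same reason. Among scaled measures over all depths, the stimulation values of *Zap70*, *Lcp2*, *Cd247*, *Lck* and *Cd3g* kept their direction. Over the 13 alternatives, 650 of 688 values of named genes kept their sign for stimulation and 275 of 312 for IFT20-KO against WT. Several alternatives change the cells little, and the turns were uneven. In cells with 1400 to 3000 UMIs 13 of 53 values had the other sign for stimulation and 16 of 24 for IFT20-KO against WT. Depth limits the share of cells with a UMI, and reading only shallow or only deep cells compares unequal fractions of the libraries.

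The median log2 ratio of the 9 genes for stimulation was -0.0062 with median-ratio size factors, -0.13 with means of per-cell fractions, -0.28 without mitochondrial and ribosomal protein genes, -0.12 in thinned cells, -0.044 in cells with 6000 to 12000 UMIs, -0.20 in *Il2ra* cells, -0.11 in cells with at least 6000 UMIs, -0.12 in cells with 1400 to 3000 UMIs, and 1.18 in UMIs per cell, where 6 genes were higher and 0 lower past 1.5-fold. With per-cell fractions, and in cells with 1400 to 3000 UMIs, 2 genes were lower. For IFT20-KO against WT the median was -0.19 with size factors, -0.64 in UMIs per cell, -0.048 in thinned cells, 0.015 in cells with 6000 to 12000 UMIs, 0.019 in cells with at least 6000 and -0.18 in cells with 1400 to 3000. The number higher past 1.5-fold was 0 under size factors, UMIs per cell, per-cell fractions, thinning, 6000 to 12000 UMIs, at least 6000 UMIs, 1400 to 3000 UMIs and in *Il2ra* cells. The number lower was 6 in UMIs per cell and 1 in cells with 1400 to 3000 UMIs.

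For the other 76 pathway genes the median for stimulation was -0.39 with size factors, 0.80 in UMIs per cell, -0.41 with per-cell fractions, -0.66 without mitochondrial and ribosomal protein genes, -0.31 in thinned cells, -0.41 in cells with 6000 to 12000 UMIs and 0.043 in cells with 1400 to 3000 UMIs. In UMIs per cell 43 were higher and 12 lower, and in cells with 1400 to 3000 UMIs 24 were higher. The median of all genes under these settings was 1.26 and 0.46. For IFT20-KO against WT the median was -0.044 with size factors, -0.50 in UMIs per cell, 0.014 in cells with 6000 to 12000 UMIs and -0.16 in cells with 1400 to 3000. The number higher was 0 in UMIs per cell, 2 with per-cell fractions, 11 under the stricter filter, 15 in cells with at least 33.3% of the median UMIs, 1 in cells with 6000 to 12000 UMIs, 0 with at least 6000 and 1 with 1400 to 3000. The number lower was 29 in UMIs per cell, 1 in thinned cells and 11 in cells with 1400 to 3000 UMIs. The median of all genes under these settings was -0.49, 0.165 and -0.079. Shares of all genes past 1.5-fold under the alternative settings are not given here, so these counts cannot be set apart from shifts of all genes.

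Some genes that were past 1.5-fold in CPM over all kept cells turned direction. In UMIs per cell the log2 ratio for stimulation was 0.65 for *Cd3g*, 0.14 for *Cd247*, 0.48 for *Cd4*, 0.58 for *Lck*, 0.48 for *Cd2ap*, 0.55 for *Coro1a*, 0.12 for *Dgka*, 0.56 for *Dgkz*, 0.10 for *Pik3cd*, 0.087 for *Plcg1*, 0.13 for *Rhoh*, 0.28 for *Stim1*, 0.51 for *Ubash3a* and 0.74 for *Was*, since stimulated cells held more UMIs. For IFT20-KO against WT it was -0.014 for *Cd4* and -0.026 for *Itpr3*, which was at -0.16 in cells with 6000 to 12000 UMIs. In cells with 1400 to 3000 UMIs the ratio for stimulation was 1.23 for *Cd4*, 0.11 for *Cbl*, 0.17 for *Cd2ap*, 0.043 for *Dock2*, 0.67 for *Pag1*, 0.24 for *Pik3cd*, 0.27 for *Rhoh* and 0.86 for *Stim1*, and for IFT20-KO against WT it was -0.38 for *Cd4*, -0.30 for *Itpr3* and -0.11 for *Themis*. Genes within 1.5-fold turned in that bin as well for IFT20-KO against WT. Among them were *Cd5* (0.24 over all kept cells and -0.51 in the bin) and *Vps28* (-0.11 and 0.42). Apart from the unscaled counts, the cause was not tested.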

Other observations

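Among stimulated cells with 6000 to 12000 UMIs, those with an *Il2ra* UMI, the gene of the interleukin-2 receptor α chain and a sign of activation, differed most from the others in *Lcp2*. It stood at 341 CPM with and 264 CPM without an *Il2ra* UMI in WT cells and at 328 and 269 CPM in IFT20-KO cells. *Cd3g* was lower with *Il2ra*, at 644 against 792 CPM in WT and 690 against 761 CPM in IFT20-KO cells. *Lat* was at 801 against 781 CPM in WT and 718 against 679 CPM in IFT20-KO cells. Median depth was 10073 and 9868 UMIs in the WT cells with and without *Il2ra* and 9899 and 9327 UMIs in the IFT20-KO cells, and the part of this gap in the values was not tested. Cells of 1 library are not replicates, so these values carry no test.

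The 897 abundant genes had at least 170.2 CPM, the level of *Cd247* in stimulated WT cells, in either stimulated library. Besides *Cd4*, those higher in IFT20-KO cells past 1.5-fold were *Mbnl1* (194 CPM in WT and 396 in IFT20-KO) and *Inpp4b* (174 and 266 CPM), a phosphatase of PI3K products. The 5 lower genes were *Ly6a* (339 and 45.5 CPM), *Gbp2* (276 and 120.0 CPM), *Pcbp1* (793 and 439 CPM), *AW112010* (220.3 and 127 CPM) and *Psmb9* (179 and 111 CPM). All of these but *Pcbp1* passed the filter in WT cells only. These genes were picked after their values were seen.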
